A study of Mus musculus with 35 samples.

Results

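The genes described here are the vomeronasal type 1 receptor (Vmn1r) genes of the mouse, taken by symbol (Vmn1r followed by digits alone) among protein-coding autosomal genes of the RefSeq gene table of GRCm38.p6. The rule found 230 of 20665 genes. Of these, 228 had a position on the assembled chromosome sequence, and the others, Vmn1r186 and Vmn1r187, lie on unplaced sequence and could not be compared with peaks. Symbols alone decide membership, but the family as such was selected on values of these same peak lists in an earlier look at the data, so every value below is a description and no test was run on it. Members within 1 Mb of each other were joined, which gave 10 clusters holding 225 members and left 3 lone genes, Vmn1r1, Vmn1r90 and Vmn1r238. The cluster was the unit of counting, because neighbouring members lie under the same broad peaks.

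The study mapped 3 histone H3 marks by CATCH-seq, in which unfixed chromatin is cut with micrococcal nuclease and precipitated beside carrier DNA that is later cut by I-SceI, so that few cells suffice. All groups carry the genotype label WT. The d4c7 oogonia-like, d4c13 oocyte-like and d4c34 oocyte-like cells come from the 1 cell line H18 with the reporters Prdm1-mVenus and Dppa3-ECFP, so they stand for 1 genetic background. E18.5 oocytes carry these reporters too, and the GV (germinal vesicle) oocytes carry the label BDF1, which is another background, so stage and strain cannot be told apart there. H3K4me3 and H3K36me3 were each given at 4 stages (d4c13, d4c34, E18.5, GV) and H3K27me3 at these and d4c7, which made 13 peak lists. The labels name 9 H3K4me3, 9 H3K27me3, 8 H3K36me3 and 9 input libraries, but each stage and mark has 1 list, so no value has a replicate spread and the depth behind it is unknown. As a check of the labelled cell type, 6 of 6 germ cell genes (Ddx4, Dazl, Sycp3, Tdrd1, Zp3, Gdf9) had an H3K4me3 peak at a gene end in all 4 H3K4me3 lists, as did between 62.4% and 75.9% of all genes in a list. H3K27me3 marked 5 of these 6 genes in d4c13, 3 in d4c7 and at E18.5, and 1 in d4c34 and in GV oocytes. Peaks at so few genes are a weak check of cell type.

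Vmn1r genes encode G protein-coupled receptors of sensory neurons in the vomeronasal organ, where each neuron chooses a single receptor gene, and they have no known role in oocytes. H3K4me3 usually marks active or poised promoters, above all those rich in CG dinucleotides, while H3K27me3 is laid down by Polycomb repressive complexes. H3K36me3 covers transcribed gene bodies, and in growing oocytes it is known to guide the de novo DNA methylation of the genome.

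The start regions of the members were poor in CG, as the 4 windows printed here show. Each holds 250 bases before and 50 after the annotated start, 5′ to 3′ on the gene's strand, from RefSeq on GRCm38.p6, with every CG in capitals. Vmn1r54 (chr6:90268856-90269155, plus strand) has 6 CG, the highest number in any member, and lies in the cluster with most H3K27me3 in GV oocytes. Vmn1r33 (chr6:66612519-66612818, minus strand) lies in the cluster that was wholly under H3K27me3 at E18.5. Vmn1r196 (chr13:22292943-22293242, plus strand) has no CG, and its window is the only one of the members under an H3K4me3 peak in d4c13. Vmn1r111 (chr7:20703167-20703466, minus strand) stands for a group of 6 members with identical windows in the largest cluster.
Vmn1r54: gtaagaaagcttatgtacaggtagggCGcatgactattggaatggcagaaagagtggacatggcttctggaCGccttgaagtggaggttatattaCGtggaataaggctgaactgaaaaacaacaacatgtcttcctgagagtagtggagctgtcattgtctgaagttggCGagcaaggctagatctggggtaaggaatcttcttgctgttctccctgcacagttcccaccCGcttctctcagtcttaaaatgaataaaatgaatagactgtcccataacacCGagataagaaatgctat
Vmn1r33: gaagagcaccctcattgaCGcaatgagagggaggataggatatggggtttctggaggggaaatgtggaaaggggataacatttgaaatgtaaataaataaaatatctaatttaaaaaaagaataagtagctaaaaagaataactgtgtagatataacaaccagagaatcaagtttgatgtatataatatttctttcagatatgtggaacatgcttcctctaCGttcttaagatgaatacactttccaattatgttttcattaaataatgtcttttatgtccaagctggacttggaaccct
Vmn1r196: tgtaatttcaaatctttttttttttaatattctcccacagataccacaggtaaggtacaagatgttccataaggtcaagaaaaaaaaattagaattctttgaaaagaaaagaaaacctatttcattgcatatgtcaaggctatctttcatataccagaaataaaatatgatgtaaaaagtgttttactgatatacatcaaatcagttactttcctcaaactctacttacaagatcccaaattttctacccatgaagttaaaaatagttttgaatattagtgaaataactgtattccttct
Vmn1r111: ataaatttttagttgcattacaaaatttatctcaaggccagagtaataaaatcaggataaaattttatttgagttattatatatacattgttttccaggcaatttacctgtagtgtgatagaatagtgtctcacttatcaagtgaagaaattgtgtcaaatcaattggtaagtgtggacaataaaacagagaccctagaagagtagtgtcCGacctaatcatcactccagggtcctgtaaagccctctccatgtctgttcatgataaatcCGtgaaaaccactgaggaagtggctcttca

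Windows of 300 bases were given for 205 of the 228 members and for 16457 genes in all. Of the member windows, 180 have ATG at the annotated start, so most begin at the coding start and the true promoter may lie farther upstream. The median was 1 CG (range 0 to 6), against 14 over all genes. No CG was found in 21.5% of member windows and in 4.95% of all windows, whereas 10 or more CG were found in 0% of member windows and in 58.5% of all windows. The median GC content was 36% in members and 56.7% in all genes. The letters TATAAA, read on both strands, were found in 42.4% of member windows and in 13.5% of all windows. Windows of the related Vmn2r family and of the olfactory receptors (Olfr) also had a median of 1 CG, and TATAAA was found in 23.5% and 41.3% of them.

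The 10 clusters, named here by chromosome and order, took up 12.5 Mb, or 0.522% of the autosomes. Cluster 4a (chromosome 4, 3172083 to 3185305) holds Vmn1r2 and Vmn1r3. Chromosome 6 carries cluster 6a (56923914 to 58472878, 28 members from Vmn1r4 to Vmn1r31), cluster 6b (66552183 to 66805332, 8 members from Vmn1r32 to Vmn1r39) and cluster 6c (89711261 to 90270053, 15 members from Vmn1r40 to Vmn1r54). Chromosome 7 carries clusters 7a (11 members), 7b (24), 7c (86, from Vmn1r91 to Vmn1r183) and 7d (2). Cluster 13a holds 35 members from Vmn1r188 to Vmn1r223, and cluster 17a holds 14 from Vmn1r224 to Vmn1r237. Members are short, with a median length of 924 bp, which is below the 10 kb grid on which the H3K27me3 and H3K36me3 peaks lie and close to the 1 kb grid of H3K4me3. A mark at a member therefore often means a wide peak over several genes, and coverage of the cluster is given first.

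**Figure D1:**
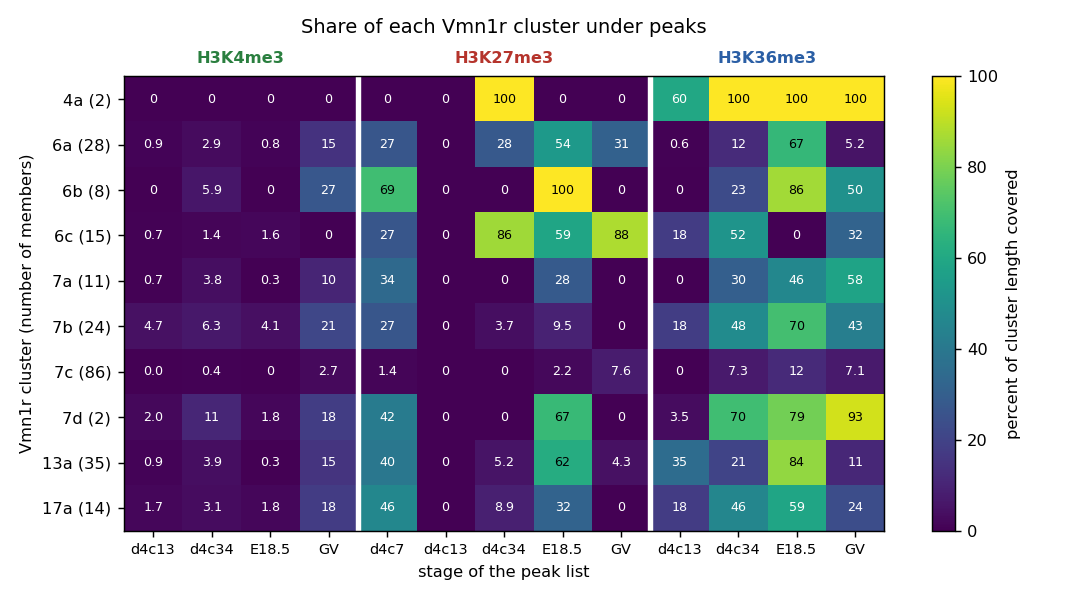
Percent of the length of each Vmn1r cluster (rows, with the number of members) under peaks in each of the 13 lists (columns), from 0 in dark to 100 in yellow. The H3K27me3 column of d4c13 is 0 in all 10 clusters, and the H3K36me3 column of E18.5 reaches 50% or more in 7.

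H3K27me3 was present over the clusters in d4c7 and at E18.5, without a peak in d4c13, and present in 6 clusters in d4c34 and 4 in GV oocytes. In all clusters together it covered 23.1% of the length in d4c7, 0% in d4c13, 9.34% in d4c34, 26% at E18.5 and 10.5% in GV oocytes. Over the rest of the autosomes the same lists covered 36.1%, 43.6%, 37.9%, 40.7% and 29.1%. The d4c13 list thus covered the most outside the clusters and nothing within them. The median over the 10 clusters was 30.4%, 0%, 4.45%, 42.8% and 0% in the same order, and 1, 0, 2, 5 and 1 clusters were covered over at least 50% of their length.

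The gap in d4c13 ended close to the edges of some clusters. No d4c13 H3K27me3 peak touched any cluster, although the 500 kb on each side were covered over 93.9% at 6c, 73.5% at 7c and 58.0% at 13a. The nearest such peaks lay 31.3 kb and 29.9 kb from the edges of 6c, 27.9 kb and 19.7 kb from those of 13a, and 6.49 kb from the left edge of 7a. Other clusters lay in long stretches without H3K27me3 in this list. Cluster 7b lay in a stretch of 9700 kb between peaks and 6a in one of 6570 kb, and the 500 kb flanks of 6b and 7b were also at 0%. All 9 clusters with H3K27me3 in d4c7 had it at E18.5 and lacked it in d4c13.

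Single domains often held whole runs of receptor genes. At E18.5 a peak of 340 kb held all 8 members of 6b (100% of the cluster), where d4c7 had 69.3% and d4c13, d4c34 and GV oocytes had 0%. In 13a the E18.5 list held a peak of 530 kb over 16 members from Vmn1r191 to Vmn1r206 and another of 260 kb over 9 members, so that 62.0% of the cluster was covered, against 39.8% in d4c7, 5.16% in d4c34 and 4.30% in GV oocytes. Cluster 6a had 53.8% at E18.5, 26.7% in d4c7, 27.8% in d4c34 and 31.2% in GV oocytes. Clusters 7a, 7d and 17a had between 28.2% and 67.2% at E18.5 and 0% in GV oocytes.

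Cluster 6c went the other way. It had 26.6% in d4c7, 0% in d4c13, 85.7% in d4c34, 58.8% at E18.5 and 87.7% in GV oocytes. In GV oocytes a peak of 260 kb held the 6 members from Vmn1r41 to Vmn1r46 and one of 440 kb the 6 from Vmn1r49 to Vmn1r54. The d4c34 list had a peak of 450 kb over the same 6 members from Vmn1r49 to Vmn1r54, and in 6c the peaks of these 2 lists shared 450 kb, which is 94.0% of the d4c34 and 91.8% of the GV coverage. Cluster 4a was under H3K27me3 only in d4c34, over its whole 13 kb. From E18.5 to GV oocytes the coverage was lower in 7 clusters, higher in 6c and 7c, and 0 in both at 4a. All GV values of H3K27me3 rest on a stage with 1 H3K27me3 library.

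In summed length over the clusters, the stages paired in their H3K27me3 positions as well as in amount. Within clusters, d4c7 and E18.5 shared 2012 kb, which was 69.4% of the former and 61.7% of the latter (Jaccard index, shared over joint length, 0.485). The d4c34 and GV lists shared 800 kb, 68.3% and 60.5% (0.472). Across these pairs the index was 0.0718 for d4c7 with GV and 0.146 for E18.5 with GV. It was 0.143 for d4c7 with d4c34 and 0.171 for d4c34 with E18.5. By cluster, d4c7 and E18.5 shared sequence everywhere but in 4a, where neither had a peak. The length shared by d4c34 and GV came from 6c (450 kb), 6a (300 kb) and 13a (50 kb) alone. In 4a, 7b, 7c and 17a these lists shared 0 kb. In 7b and 17a the d4c34 peaks instead overlapped those of E18.5 (index 0.392 and 0.237).

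**Figure D2:**
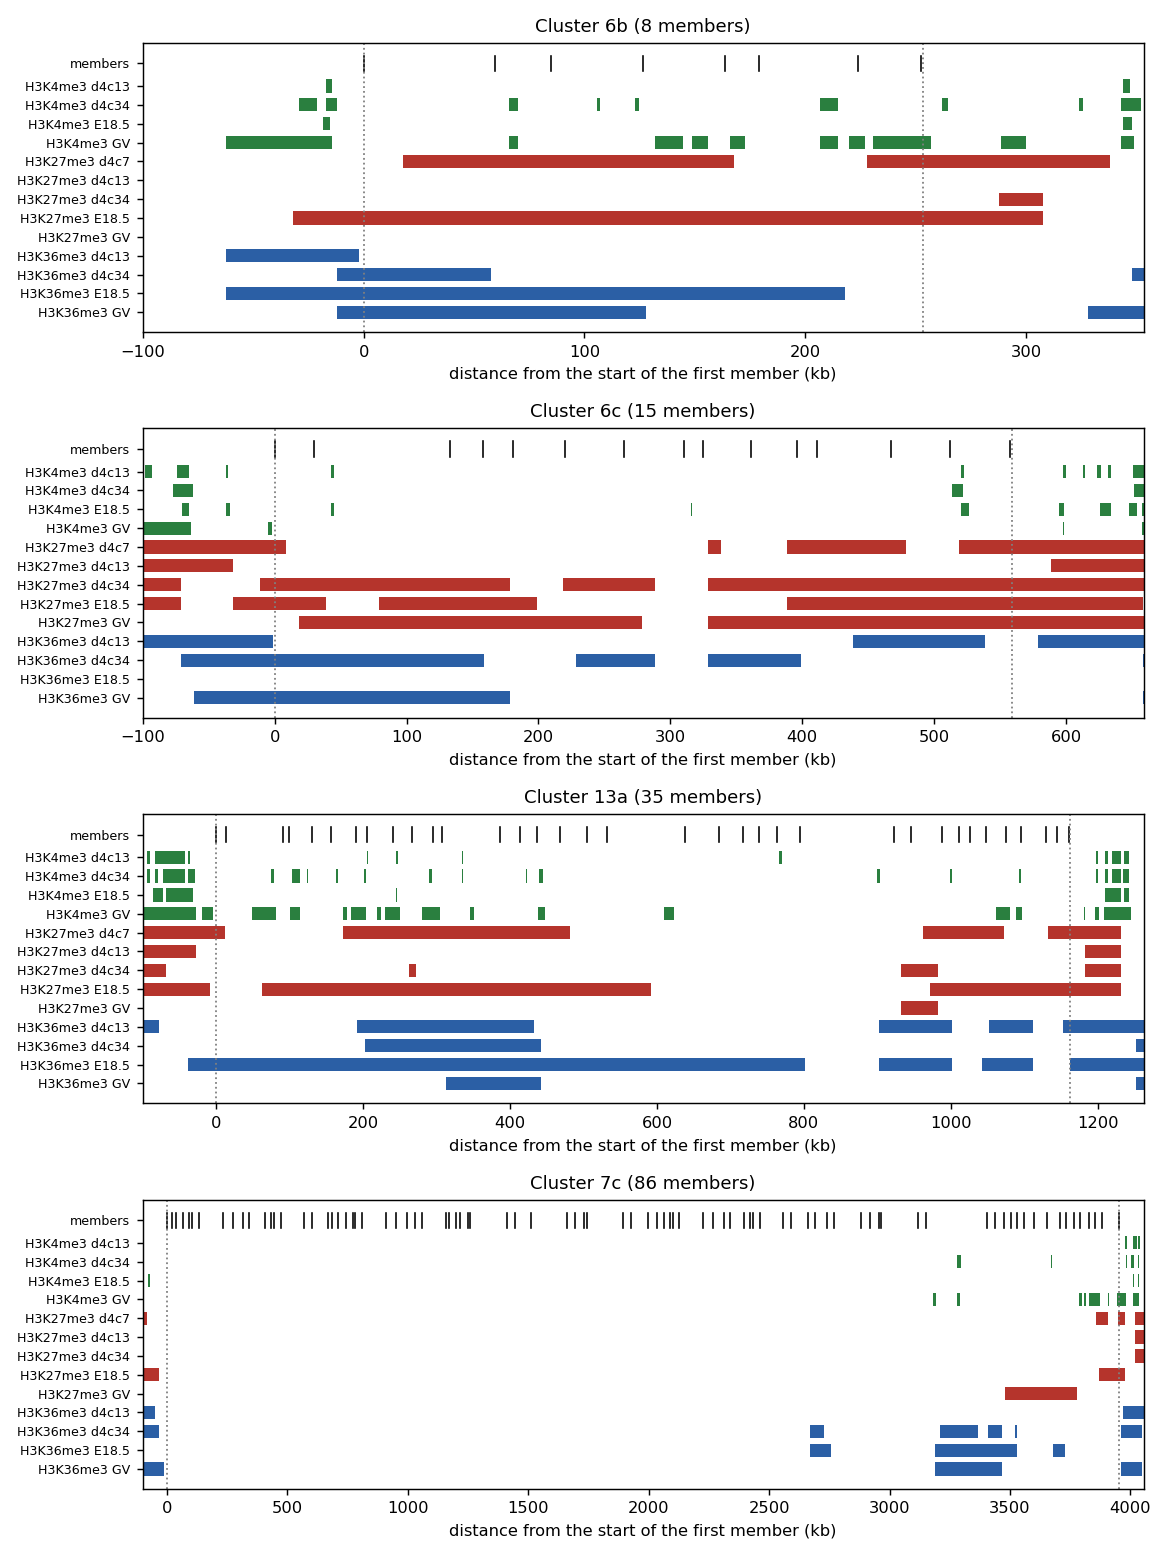
Peaks of the 13 lists (rows; green H3K4me3, red H3K27me3, blue H3K36me3) along clusters 6b, 6c, 13a and 7c, as distance in kb from the start of the first member; black ticks are member starts and dotted lines the cluster ends. H3K27me3 of d4c13 reaches the flanks of 6c and 13a and no cluster, and the left part of 7c holds almost no peak of any list.

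H3K36me3 covered the clusters more at E18.5 than in the other 3 lists. It covered 9.81% in d4c13, 27.2% in d4c34, 47.7% at E18.5 and 24.8% in GV oocytes, where the rest of the autosomes had 46.3%, 37.4%, 24.3% and 39.5%. E18.5 was thus the only H3K36me3 list with more coverage inside the clusters than outside. The medians over clusters were 10.7%, 38.0%, 68.4% and 37.4%, and 1, 3, 7 and 4 clusters were covered over at least 50%. At E18.5 the coverage was above that of the 500 kb flanks in 9 of 10 clusters. Cluster 6c and its flanks were both at 0% in that list, although 6c had 17.9% in d4c13, 51.7% in d4c34 and 32.0% in GV oocytes.

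The H3K36me3 domain with the most members lay in 13a. At E18.5 a peak of 840 kb there held 24 members from Vmn1r188 to Vmn1r212, and the cluster was covered over 83.7%, against 35.3% in d4c13, 20.6% in d4c34 and 11.2% in GV oocytes. A domain of 240 kb over the 7 members from Vmn1r196 to Vmn1r202 was also marked in d4c13, and d4c34 had one of nearly the same extent. Cluster 6a had 0.646% in d4c13, 12.3% in d4c34, 66.7% at E18.5 and 5.16% in GV oocytes. In the same order 6b had 0%, 22.8%, 86.0% and 50.5%. In 7a and 7d the GV list held the most (58.2% and 93.3%), and in 4a the d4c34, E18.5 and GV lists each covered everything. The 2 members of 7d lie 343 kb apart, with Cyp2a4, Nlrp9c, Nlrp4a and Nlrp9a between them, and 7a also holds Nlrp2 and Vmn2r28. In 7d the d4c34 peak of 240 kb (69.5% of the cluster) held no member and the GV peak of 330 kb held Vmn1r185 alone. Coverage of 7d is thus mostly that of sequence between receptor genes. Of the d4c13 coverage in clusters 91.1% lay within E18.5 peaks, but it made up 18.7% of the E18.5 coverage. The d4c34 and GV lists shared 71.1% and 77.9% of their coverage (Jaccard index 0.591), while E18.5 and GV had an index of 0.320.

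In 7b some wide H3K36me3 peaks held no receptor gene. This cluster spans 2946 kb, and 29 other protein-coding genes lie between its 24 members, among them Zfp110, Zfp329 and Zfp606 of the zinc finger class. In d4c13 a peak of 340 kb in 7b held no marked member. In GV oocytes a peak of 600 kb there likewise held none, and 6 of the 24 members were marked. At E18.5, 17 of the 24 members were marked and the cluster was covered over 70.1%.

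H3K27me3 and H3K36me3 lay together over long stretches at E18.5. Of the H3K27me3 in clusters 63.4% was also under H3K36me3, and both marks without H3K4me3 covered 16.3% of the cluster length and 10.8% of the autosomes. The share was 86.0% in 6b, 54.5% in 7d, 54.0% in 13a and 37.0% in 6a, and 0% in 4a, 6c, 7a and 7c. In 6b H3K27me3 covered everything, so the share there is simply that of H3K36me3. Whether the overlap exceeds what the coverage of each mark alone would give was not tested. In d4c34 40.3% of the H3K27me3 lay under H3K36me3, and both marks without H3K4me3 covered 3.76% of the cluster length and 7.11% of the autosomes. In GV oocytes 13.6% of the H3K27me3 lay under H3K36me3, and both marks without H3K4me3 covered 1.44% of the cluster length and 3.43% of the autosomes. Cluster 6c, without this overlap at E18.5, had it over 51.7% of its length in d4c34 and 28.6% in GV oocytes. Cluster 4a had it over 100% in d4c34. These lists come from many cells, so both marks on 1 chromosome and a mixture of cells or alleles cannot be told apart. Cluster length without any of the 3 marks was 89.7% in d4c13 (42.6% of the autosomes), 65.8% in d4c34 (30.9%), 42.7% at E18.5 (43.3%) and 57.4% in GV oocytes (21.0%). Of the 5353 kb without a mark at E18.5, 3389 kb lay in cluster 7c alone.

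H3K4me3 was rare at members before the GV stage. A member was counted as marked by H3K4me3 or H3K27me3 if 1 kb around either of its ends held a peak. By this rule 4 of 228 members were marked in d4c13 (1.75%; 72.9% of all genes tested), 3 in d4c34 (1.32%; 68.2%), 4 at E18.5 (1.75%; 62.4%) and 22 in GV oocytes (9.65%; 75.9%). They lay in 4, 3, 4 and 7 of the 10 clusters. H3K4me3 covered 1.56%, 3.31%, 1.36% and 12.1% of the cluster length, against 10.5%, 10.6%, 5.50% and 25.5% of the rest of the autosomes. From E18.5 to GV oocytes the coverage was higher in 8 clusters, lower in 6c (0% in GV oocytes) and 0 in both at 4a. The GV values rest on a stage with 1 H3K4me3 library.

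Most of the peaks at these genes in GV oocytes were wider than the genes. In GV oocytes 21 peaks marked the 22 members, with a median width of 18 kb (3 to 53 kb), and 15 members were covered over their whole body. The median was 11.0 kb over all GV peaks and 9.00 kb over those in clusters, and a wide peak reaches a member more readily. The peaks at Vmn1r183 and Vmn1r195 also lie at other genes, Zfp180 and Gm11295, and cannot be assigned to the receptors alone. The widest held Vmn1r235, and a peak of 46.0 kb held both Vmn1r179 and Vmn1r180. Of the 120 GV peaks in clusters, 21 touched a member's end window, 28 touched that of another protein-coding gene alone, and 71 touched neither. In the 300-base start windows a peak was found at 1 of 205 members in d4c13 (69.6% of all windows), 0 in d4c34 (63.6%), 1 at E18.5 (59.4%) and 16 in GV oocytes (70.9%), as checked after the first counts were seen.

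Of the 26 members marked by H3K4me3 in any list, 19 were marked in GV oocytes alone and 7 otherwise. Vmn1r4 was marked in all 4 lists, and its peaks cover its annotated gene start at 56923914 on chromosome 6. They also cover the boundary at the higher coordinate of the neighbouring gene Nt5c3 (56882400 to 56924008), which overlaps that start. The peaks of the 2 genes therefore cannot be told apart. The Vmn1r4 window in the promoter table lies inside the gene (56956263 to 56956562), 29.3 kb from the nearest of these peaks. Vmn1r196 was marked in d4c13 by a peak of 2.0 kb that covered its whole body and at E18.5 by one of 1.0 kb that covered 10.8% of it. Vmn1r184 had peaks of 2.0 kb in d4c13 and 4.0 kb at E18.5. Vmn1r235 was marked in d4c13 and GV oocytes, Vmn1r220 in d4c34 and GV oocytes, Vmn1r53 in d4c34 alone, and Vmn1r236 at E18.5 alone by a peak of 6.0 kb over its whole body.

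Counted by gene, H3K27me3 marked 58 of 228 members in d4c7 (25.4%; 46.6% of all genes), 1 in d4c13 (0.439%; 62.6%), 24 in d4c34 (10.5%; 44.6%), 82 at E18.5 (36%; 38.6%) and 30 in GV oocytes (13.2%; 28.5%). The 1 member marked in d4c13 was the lone gene Vmn1r1. H3K36me3, counted where it covered at least 20% of a gene body, marked 23 members in d4c13 (10.1%; 70.2%), 41 in d4c34 (18%; 64.9%), 100 at E18.5 (43.9%; 21.5%) and 36 in GV oocytes (15.8%; 63.4%). At E18.5, 51 members had both marks, 31 had H3K27me3 and 49 had H3K36me3 without the other, and 96 (42.1%) had none of the 3 marks. Among all genes 9.22% had both and 14.6% none at E18.5. Most of the 96 lay in cluster 7c, where H3K27me3 marked 2, H3K36me3 7 and H3K4me3 0 of 86 members at E18.5. In d4c13, 202 of the 228 members (88.6%) and 13.8% of all genes had none.

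**Figure D3:**
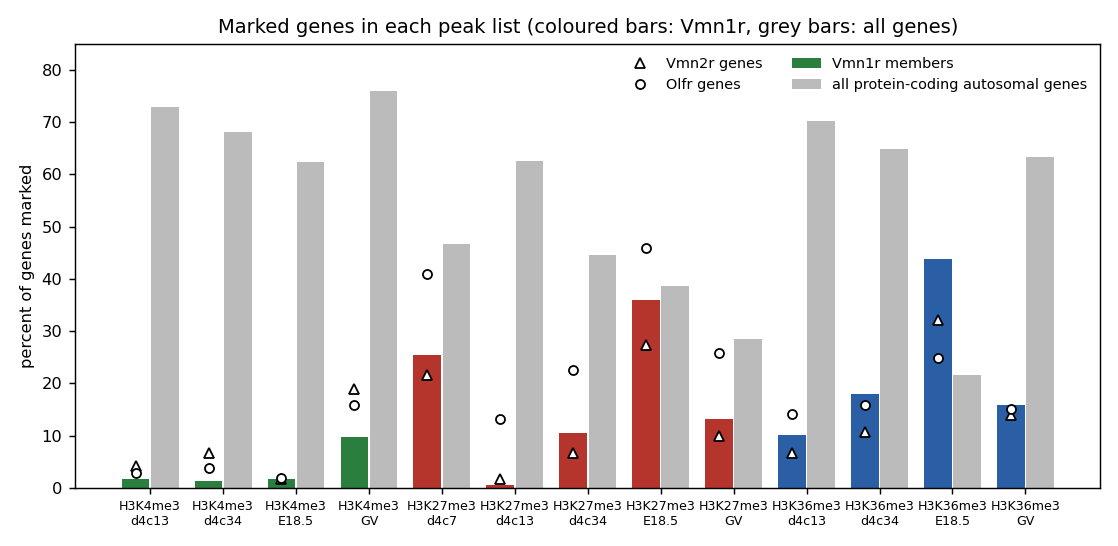
Percent of genes marked in each of the 13 lists: Vmn1r members (coloured bars), all protein-coding autosomal genes (grey bars), Vmn2r genes (triangles) and Olfr genes (circles). With all members counted, the coloured bar stands above the grey bar in 1 list, H3K36me3 at E18.5 (43.9% and 21.5%); without cluster 7c the H3K27me3 share at E18.5 (56.3%) also exceeds the grey bar (38.6%).

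Members differed widely in how many stages marked them. H3K27me3 was seen at 4 of 5 stages, all but d4c13, at Vmn1r27, Vmn1r50, Vmn1r51, Vmn1r52 and Vmn1r54. Of the rest, 35 members had it in d4c7 and at E18.5 alone, 26 at E18.5 alone and 118 at no stage. H3K36me3 was seen at all 4 stages at Vmn1r2, Vmn1r90, Vmn1r201, Vmn1r202 and Vmn1r233, at E18.5 alone at 57 members, and at no stage at 108. Such patterns over stages, those of H3K4me3 above included, were not counted for all genes. They therefore cannot be called particular to the members. The lone gene Vmn1r90 (chromosome 7, 14561242 to 14562171) had no other mark than this H3K36me3. Vmn1r1 (chromosome 1, 182157178 to 182158098) had H3K27me3 and H3K36me3 in d4c13 alone, and Vmn1r238 had H3K27me3 in GV oocytes and H3K36me3 in d4c34 and at E18.5.

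Cluster 7c stood apart, with the most members and little coverage by any mark. Over its 3955 kb H3K27me3 covered 1.41% in d4c7, 2.17% at E18.5 and 7.59% in GV oocytes. H3K36me3 covered 7.33% in d4c34, 12.1% at E18.5 and 7.08% in GV oocytes. H3K4me3 reached 2.72% in GV oocytes. Of the 73 members marked in no list 68 were in 7c, and the others were Vmn1r47, Vmn1r48, Vmn1r60, Vmn1r84 and Vmn1r225, named after their values were seen. When 7c was cut into 8 equal parts, the first 5 held no peak except d4c13 H3K4me3 over 0.202% of the second. The last part held a GV H3K27me3 peak of 300 kb over the 8 members from Vmn1r170 to Vmn1r177, and an H3K36me3 peak of 340 kb at E18.5 held 4 members from Vmn1r167 to Vmn1r170. Without 7c, chosen after its values were seen, the share of members marked by H3K27me3 was 39.4% in d4c7, 16.9% in d4c34 and 56.3% at E18.5, and by H3K36me3 16.2% in d4c13, 27.5% in d4c34, 65.5% at E18.5 and 23.9% in GV oocytes. At E18.5 the H3K27me3 share thus lay above that of all genes (38.6%) without 7c and below it with 7c (36%), while the H3K36me3 share lay above it (21.5%) either way.

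Near-identical copies moved with this pattern. Start windows were cut into words of 50 bases, and the share of words found in another gene's window was taken on both strands. The median share was 100% in 7c, where 67 of 83 windows shared at least 50%, and 0% over the members outside 7c, where 4 of 122 did. Within 7c, 4 of the 67 members that shared at least 50% were marked in any list, and 13 of the 16 that shared less. Groups of members with identical windows numbered 21 and held 54 members in all, the largest being Vmn1r111, Vmn1r118, Vmn1r131, Vmn1r138, Vmn1r166 and Vmn1r257. Short reads from such copies cannot be placed at 1 copy, how they were treated is not given in the sources used here, and their part in the result was not tested.

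**Figure D4:**
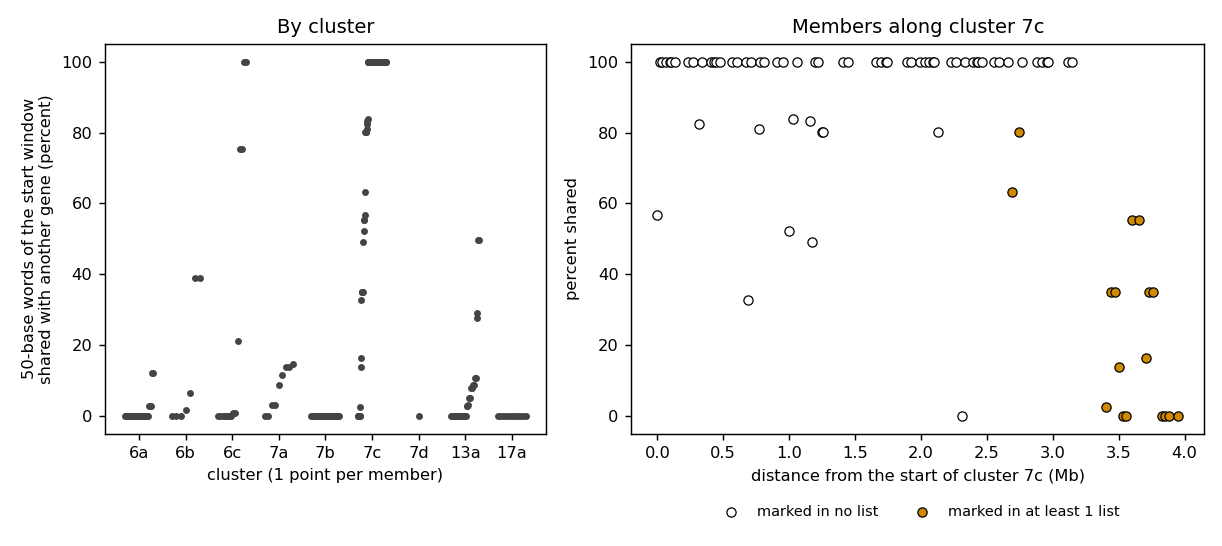
Left, percent of the 50-base words of each member's 300-base start window that another gene's window shares, by cluster (1 point per member; 4a has no window in the table). Right, the same for members along cluster 7c by distance from its start in Mb, filled where the member was marked in at least 1 list: the marked members lie to the right of most unmarked ones, and 13 of 17 share less than 50%.

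Pseudogenes between the members carried the broad marks too. Of 109 Vmn1r pseudogenes inside the clusters, H3K36me3 marked 63.3% at E18.5 (43.6% of the members in clusters) and H3K27me3 marked 38.5% (36.4%). In GV oocytes H3K4me3 marked 18.3% of pseudogenes and 9.78% of members. The 2 sets are spread unlike over the clusters, since the little marked 7c holds 13 of the pseudogenes and 86 of the members. Of the members outside 7c, lone genes included, H3K36me3 marked 65.5% and H3K27me3 56.3% at E18.5, and H3K4me3 marked 12.7% in GV oocytes. These shares therefore do not show that pseudogenes are marked more often than members. The clusters also hold 68 other protein-coding genes, of which H3K4me3 marked 36.8% in d4c13, 33.8% at E18.5 and 48.5% in GV oocytes. They include Pyurf, Lancl2 and Zfp551, all with H3K4me3 in d4c13 and at E18.5. V1ra8 in 6c, a receptor gene whose symbol falls outside the rule, had H3K27me3 in the d4c34, E18.5 and GV lists like its neighbours.

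The other chemoreceptor families, clustered in the same way, are given beside these values without a test. In d4c13 H3K27me3 covered 0.0161% of the length of 12 Vmn2r clusters and 14.9% of that of 39 Olfr clusters, against 0% here. At E18.5 it covered 17.3% and 47.4%, against 26%. H3K36me3 at E18.5 covered 34.1% of Vmn2r and 35.0% of Olfr cluster length, against 47.7%. H3K4me3 in GV oocytes marked 19% of 121 Vmn2r genes and 15.9% of 1099 Olfr genes, against 9.65% of Vmn1r members.

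Genes that work beside these receptors are given for comparison. A list of 18 genes of vomeronasal and olfactory neurons, all matched, held the channel gene Trpc2, the G protein subunits Gnai2, Gnao1, Gng8 and Gng13, and transcription factors such as Tfap2e, Bcl11b and Lhx2. H3K4me3 marked 16 of them in d4c13, 13 in d4c34 and in GV oocytes, and 11 at E18.5, where the shares of all genes were 72.9% in d4c13, 68.2% in d4c34, 75.9% in GV oocytes and 62.4% at E18.5. H3K27me3 marked 14 in d4c7, 15 in d4c13, 15 in d4c34, and 11 in both the E18.5 and GV lists, against 46.6%, 62.6%, 44.6%, 38.6% and 28.5% of all genes. H3K36me3 marked 14 in d4c13, 10 in d4c34, 1 at E18.5 (Fezf1) and 9 in the GV list, beside 70.2%, 64.9%, 21.5% and 63.4%. Trpc2, which carries the receptor current in these neurons, had H3K27me3 in d4c13 and d4c34 and H3K4me3 in d4c13 alone. It also had H3K36me3 in d4c13, d4c34 and GV oocytes. Omp, an abundant protein of mature olfactory neurons, had no H3K4me3 in any list. By contrast, Gnai2 had H3K4me3 in every H3K4me3 list, and Gng8 had it in d4c13, d4c34 and GV oocytes.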

How the data were processed

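The 13 peak lists deposited by the authors hold positions only (chromosome, start and end, per the file headers), so their unit is another one than a signal or count, and no score or p is given. Tools named in the submitters' processing notes were, with no role stated, SICER 0.0.41, MACS2 2.1.1, Bowtie2 2.3.4.1, SAMtools 1.7, bedtools 2.29.2, Picard 2.18.23, deepTools 3.5.0, Trim Galore 0.4.1 and cutadapt 1.9.1. The notes name the builds mm10 and GRCm38.p3. The sources used here do not give the caller of each list, its threshold, whether input was used or whether libraries were pooled. Depth is unknown, so lists may differ in length because of depth or threshold. Peaks lie on a grid of 1 kb (H3K4me3) or 10 kb, with gaps of at least 4 kb or 40 kb.

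Peaks were compared with the RefSeq gene table of GRCm38.p6 with pandas 2.3.3, numpy 2.4.6 and matplotlib 3.10.9 under Python 3.11.15. Members and lists were chosen with earlier results of these data known. Cluster coverage is the percent of the span from first to last member under peaks. Genes listed before 3 Mb of a chromosome lie on unplaced sequence and were left out, a departure from the plan. The planned protein comparison was not done, since no protein table was used here. Named were members with H3K4me3, first and last members of clusters, lone genes, members marked at the most stages, and genes that bound a domain, these last named after their values were seen. On simulated data, coverage had an error of 0 bp in 200 cases, and 100 of 100 members given a peak were recovered with 0 of 128 others called. The planted peaks lay within the end window by construction, so this checks the code alone and not the calls on real peaks.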

Additional observations from a re-analysis of the deposited data

How the results depend on the processing

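The counts of clusters in the 13 lists were recomputed with 1 choice changed at a time, which gave 108 values. Of these, 82 stayed within 1.5 times the main count and 26 moved. The main counts below are those of clusters with an H3K4me3-marked member, or covered over at least 50% by another mark. With a coverage limit of 20% the count moved from 1 to 8 for H3K27me3 in d4c7, 1 to 2 in GV oocytes, and for H3K36me3 from 1 to 2 in d4c13, 3 to 8 in d4c34 and 4 to 7 in GV oocytes. With 80% it moved to 0 for H3K27me3 in d4c7 and 1 at E18.5, and for H3K36me3 to 0 in d4c13, 1 in d4c34, 3 at E18.5 and 2 in GV oocytes. Keeping only peaks as wide as their list's median or wider gave 0 for H3K4me3 in d4c13 and 2 at E18.5, 1 and 2 for H3K27me3 in d4c34 and at E18.5, and 0 for H3K36me3 in d4c13. Clusters of at least 5 members gave 1 for H3K27me3 in d4c34 and 0, 1 and 2 for H3K36me3 in d4c13, d4c34 and GV oocytes. Joining members within 500 kb, which made 12 clusters, gave 2 for H3K27me3 in d4c7 and 2 for H3K36me3 in d4c13, and spans widened by 50 kb gave 0 for the latter. For H3K4me3, both ends marked gave 2 clusters in d4c13 and 1 in d4c34, and a distance of 5 kb gave 6 in d4c34. The cause was not tested. Joining within 2 Mb changed no count of clusters. Leaving out peaks of 1 Mb or more changed only the H3K36me3 count at E18.5, from 7 to 6, which is within 1.5 times. The count of clusters covered by H3K27me3 in d4c13 was 0 under all 8 alternatives run for it. Since no peak of that list touched a cluster, most of these alternatives could give no other value. Members marked by H3K4me3 within 5 kb numbered 7 in d4c13, 11 in d4c34 and 41 in GV oocytes, and with both ends marked 2 in d4c13 and 1 in d4c34. The shares of all genes under these 2 rules were not computed, so these member counts have no background beside them.

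No paired analysis was possible because each stage and mark has 1 list, which carries no replicate number. Unknown depth, the grid, and short members limit every count.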
